A study of Mus musculus with 7 samples.

Results

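The thyroid hormone genes measured in these livers were Dio1, Thra, Thrb, Slc16a10, Ttr, Thrsp, Klf9 and Gpd2. They were taken as the array features that carry 1 of these 8 gene names and are not controls, which gave 14 of the 55681 probes and 8 of the 36492 gene names on the arrays. All 8 were among the 20002 genes bright enough to be tested, which meant a signal well above background on 3 arrays or more. Dio1 was selected on its signal on these same arrays, which had been seen to be strongly lower in SHIVA livers, so its difference between the genotypes is given as a description with no test.

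Livers of 3 WT and 4 SHIVA mice were each hybridized to a single-colour Agilent array. SHIVA mice come from a chemical mutagenesis screen with ENU and carry 1 mutant copy of Sox17, a transcription factor of the Sox family, in which a methionine of the DNA-binding HMG domain is replaced by an arginine. WT mice were C57BL/6, and the mutation was backcrossed on the same strain. Both genotypes were females of 8 to 12 weeks, and all 7 mice had been fasted for 24 h, so fasting is common to both groups. No samples were pooled, and SHIVA is 1 mutant line. The comparison asks how a Sox17 mutation changes the liver transcripts of a fasted mouse.

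Thyroid hormone reaches the liver mainly as thyroxine, T4, bound to plasma proteins. It enters hepatocytes through membrane transporters, and the selenoenzyme type 1 deiodinase removes an iodine atom to give the active hormone T3 or clears the inactive reverse T3. T3 binds nuclear receptors that sit on DNA together with the retinoid X receptor, and the bound receptor exchanges corepressors for coactivators at its target genes. Dio1 is itself a T3 target in liver, and so are genes of lipid synthesis and of mitochondrial shuttles. Fasting is known to lower circulating thyroid hormone.

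Dio1 was read by 3 separate probes along its transcript, in mm9 on the minus strand of chromosome 4. They are shown because the description of Dio1 rests on them. The probe from base 301 lies at chr4:106979388-106979447 and the probe from base 739 at chr4:106964935-106964994. The latter ends in the stop triplet TAG, in capitals. Of the probe from base 1340, which the files place at chr4:106964052-106964088, the first 30 bases are given.
Dio1 from base 301: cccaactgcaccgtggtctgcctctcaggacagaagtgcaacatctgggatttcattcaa
Dio1 from base 739: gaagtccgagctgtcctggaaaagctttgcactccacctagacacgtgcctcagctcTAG
Dio1 from base 1340: accatcttgaaatagattgcactaggaatc

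Dio1, the type 1 deiodinase, was lower in every SHIVA liver than in any WT liver on all 3 probes. With the brightest probe, from base 1340, the log2 signal was 12.47, 12.10 and 12.31 in the 3 WT livers and 10.73, 10.77, 10.89 and 10.90 in the 4 SHIVA livers. The means were 12.30 ± 0.19 (SD, n = 3) and 10.82 ± 0.09 (SD, n = 4), a log2 difference of -1.47 or a 2.77-fold higher signal in WT livers. The lowest WT value lay 1.20 log2 units above the highest SHIVA value, and the 4 SHIVA livers spread less than the WT livers. Of the 20002 genes tested, 73 had a more negative log2 fold change than Dio1.

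The other probes of Dio1 gave the same picture. From base 301 the log2 signal was 9.94, 9.44 and 9.72 in WT livers and 7.94, 8.20, 8.10 and 8.05 in SHIVA livers, a difference of -1.63. From base 739 it was 11.34, 11.01 and 11.25 against 9.54, 9.57, 9.70 and 9.70, a difference of -1.58. The WT livers kept the same order on each probe, with replicate 1 highest and replicate 2 lowest. Among the SHIVA livers replicate 1 was lowest on each probe. Replicates 3 and 4 were highest and nearly level from bases 1340 and 739, while replicate 2 was highest from base 301. After each probe was set to its own mean, the 3 probes lay within 0.17 log2 units of each other in every mouse.

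**Figure D1:**
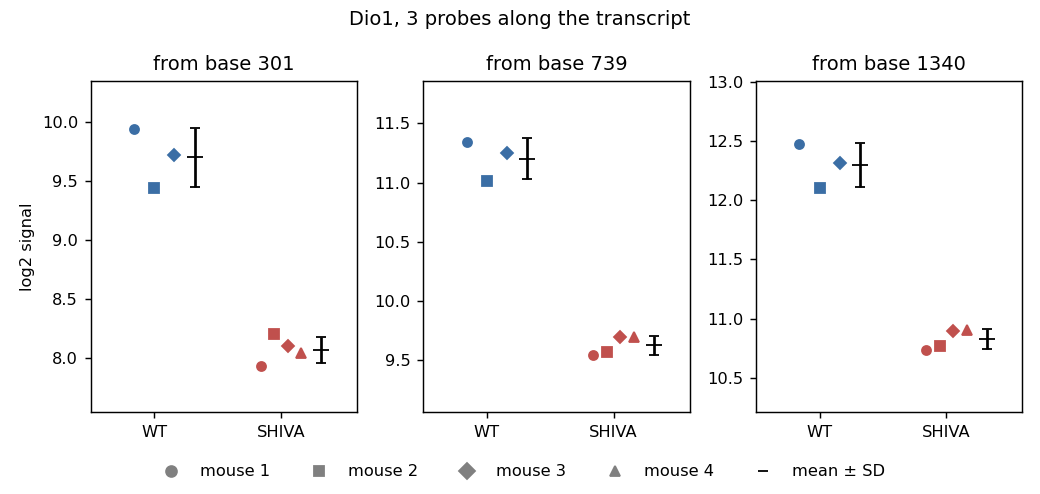
Log2 signal of Dio1 in fasted livers for its 3 probes, named by the transcript base at which they start, with 1 point per mouse (3 WT, 4 SHIVA) and the mean ± SD as a black bar. On each probe all SHIVA values lie below all WT values, by differences of means between -1.47 and -1.63, and each panel has its own signal axis.

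None of the 7 genes other than Dio1 passed limma's test with Benjamini-Hochberg adjustment over all 20002 genes, where 0.375% of genes were called at an adjusted p under 0.05. At an unadjusted p under 0.05 there were 4 of them, Klf9, Gpd2, Slc16a10 and Ttr, beside 13.3% of all genes tested. By the value of their means, 6 of the 7 were lower in SHIVA livers and Slc16a10 was higher, and their median log2 fold change was -0.36 beside -0.01 over all genes tested. The genotypes did not overlap for those 4 genes, and for 12.2% of all genes tested. Their smallest adjusted p, for Gpd2, was 0.159.

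**Figure D2:**
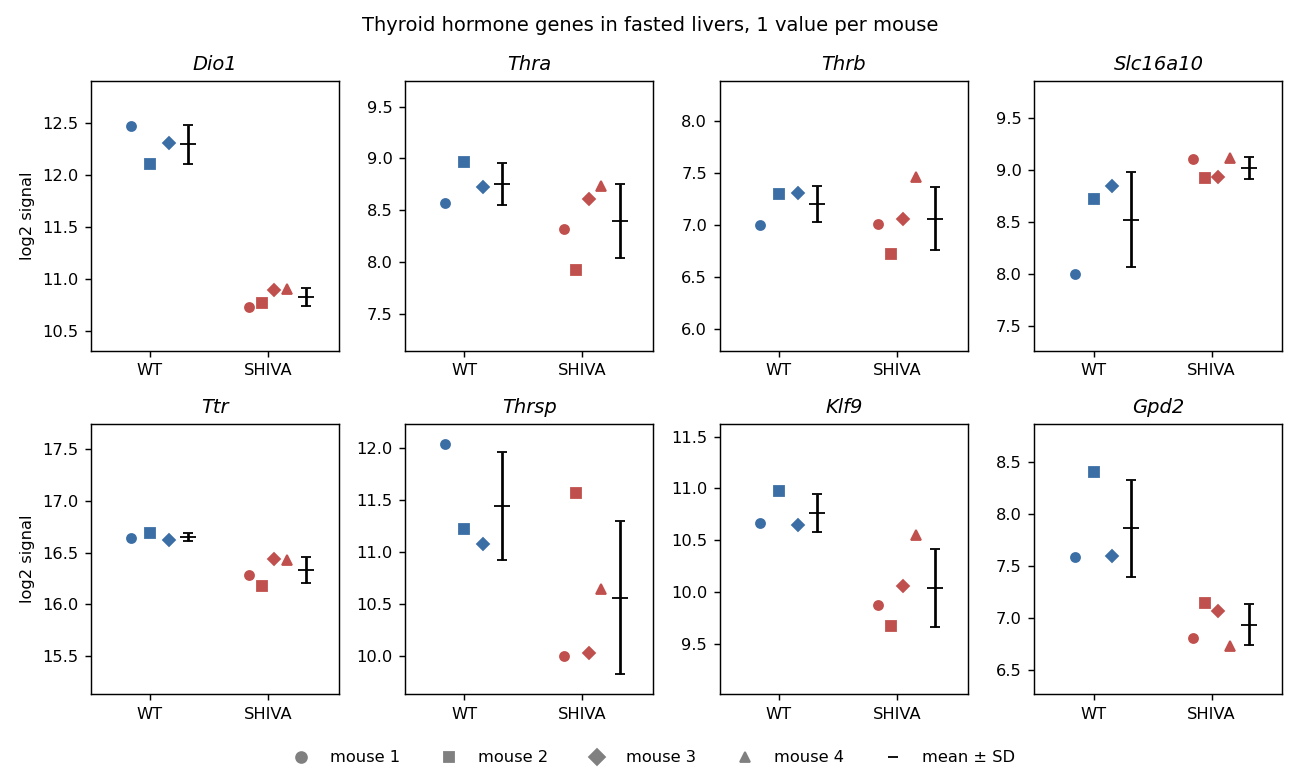
Log2 signal of the 8 thyroid hormone genes, each by its brightest probe, with 1 point per mouse (3 WT, 4 SHIVA) and the mean ± SD as a black bar. Every panel spans the same number of log2 units around its own centre, so that the gap between genotypes for Dio1, where the means differ by -1.47, can be set beside that of the others, whose differences run from -0.93 for Gpd2 to 0.50 for Slc16a10.

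Neither receptor gene passed the test. Thrb, the receptor isoform gene that dominates in hepatocytes, had log2 signals of 7.004, 7.300 and 7.306 in WT livers and 7.008, 6.720, 7.059 and 7.460 in SHIVA livers. The groups overlapped fully, with a log2 fold change of -0.14 ± 0.20 (SE), a 95% interval from -0.59 to 0.30 and an adjusted p of 0.807 in limma. Leaving out 1 mouse gave -0.27 to -0.03, the latter without SHIVA replicate 2. A further Thrb probe gave a difference of -0.08, with 1 low value of 5.45 in SHIVA replicate 2 and the other 3 SHIVA livers between 6.57 and 6.83.

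Thra, the other receptor gene, was read by a brighter probe from base 2176 and a dimmer one from base 536, and these disagreed in size. On the brighter probe the WT livers were at 8.57, 8.97 and 8.73 and the SHIVA livers at 8.32, 7.93, 8.61 and 8.74, with overlap. The log2 fold change was -0.36 ± 0.22 (SE), with a 95% interval from -0.85 to 0.14 and an adjusted p of 0.535 in limma. Leaving out SHIVA replicate 2, the lowest liver, gave -0.20.

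The dimmer Thra probe, whose 60 bases the files spread over 807 bases at chr11:98617475-98618281 of mm9 and which thus crosses an intron, read 6.66, 5.96 and 6.26 in WT livers and 5.63, 5.02, 5.77 and 5.19 in SHIVA livers. These groups did not overlap, the difference was -0.89, and the adjusted p in limma was 0.199 when every probe was tested singly. Nr1d1, which encodes the clock repressor REV-ERBα, lies on the opposite strand next to Thra, and the 3′ ends of both genes are known to overlap. Its probe, on the minus strand at chr11:98630526-98631028, lay beyond both Thra probes and had lower signals in SHIVA livers, as given with the genes most like Dio1.

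Slc16a10 encodes MCT10, a membrane transporter of aromatic amino acids that also carries T3. Its probes read different transcript variants by the names in the files, so the first 30 bases of each are shown. Variant 1 lies at chr10:39756480-39756539 and variant 2 at chr10:39795726-39795785, both on the minus strand of mm9.
Slc16a10 variant 1 probe: gccaacctaaaccttgagtctgttaaatga
Slc16a10 variant 2 probe: tgtgagatatttctggaaaacacgagaatt

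The 2 Slc16a10 variants differed in the direction of their values. Variant 1, the brighter probe, was at 8.00, 8.73 and 8.85 in WT livers and at 9.10, 8.93, 8.94 and 9.11 in SHIVA livers. The SHIVA values were all higher but by as little as 0.08, and the log2 fold change of 0.50 ± 0.22 (SE) had an adjusted p of 0.37 in limma. Without WT replicate 1, the lowest liver, it was 0.23.

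Variant 2 read 5.85, 6.27 and 4.84 in WT livers and 4.99, 5.14, 4.71 and 4.98 in SHIVA livers. WT replicate 3 lay among the SHIVA livers, so the groups overlapped. The difference was -0.70, with an adjusted p of 0.389 as a single probe, and the mean of both probes gave -0.10, with an adjusted p of 0.858.

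Ttr encodes transthyretin, the plasma carrier of T4 and of retinol-binding protein that hepatocytes secrete. Its log2 signal was 16.64, 16.69 and 16.62 in WT livers and 16.29, 16.18, 16.44 and 16.43 in SHIVA livers, with 0 saturated spots on any array. The groups did not overlap, but the gap between them was 0.18. The log2 fold change was -0.32 ± 0.14 (SE), with a 95% interval from -0.63 to -0.01 and an adjusted p of 0.364 in limma.

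Among the T3 target genes, Gpd2, the mitochondrial glycerol-3-phosphate dehydrogenase and a classical T3-induced enzyme of liver, had log2 signals of 7.59, 8.40 and 7.60 in WT livers and 6.81, 7.14, 7.07 and 6.73 in SHIVA livers. All SHIVA livers were lower, and WT replicate 2 stood above the other WT livers. The log2 fold change was -0.93 ± 0.23 (SE), a 1.90-fold higher signal in WT livers, with a 95% interval from -1.45 to -0.40 and an adjusted p of 0.159 in limma. With array weights, which count arrays that deviate less more heavily, it was -1.18 with an adjusted p of 0.0374 in limma. The largest weight, 4.11, was that of SHIVA replicate 1, and the next was 1.49.

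Klf9, a Krüppel-like transcription factor that responds directly to T3 and also to glucocorticoids, was at 10.67, 10.97 and 10.65 in WT livers and at 9.88, 9.67, 10.06 and 10.55 in SHIVA livers. The groups did not overlap, although SHIVA replicate 4 came within 0.10 of the lowest WT liver. The log2 fold change was -0.72 ± 0.22 (SE), with a 95% interval from -1.22 to -0.23 and an adjusted p of 0.232 in limma. A second Klf9 probe, which the files list under a predicted transcript, was well above background on 2 WT and 2 SHIVA arrays and gave -0.89 with overlap.

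Thrsp, also called Spot 14, is a nuclear protein of lipogenic tissues that rises with T3 and with carbohydrate feeding. Its log2 signal was 12.04, 11.22 and 11.08 in WT livers and 9.99, 11.57, 10.02 and 10.64 in SHIVA livers. SHIVA replicate 2 exceeded 2 of the WT livers, while the other SHIVA livers were below all of them. The log2 fold change was -0.89 ± 0.40 (SE), with a 95% interval from -1.81 to 0.03 and an adjusted p of 0.394 in limma. It was -1.23 without SHIVA replicate 2 and -0.59 without WT replicate 1, the highest liver.

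**Figure D3:**
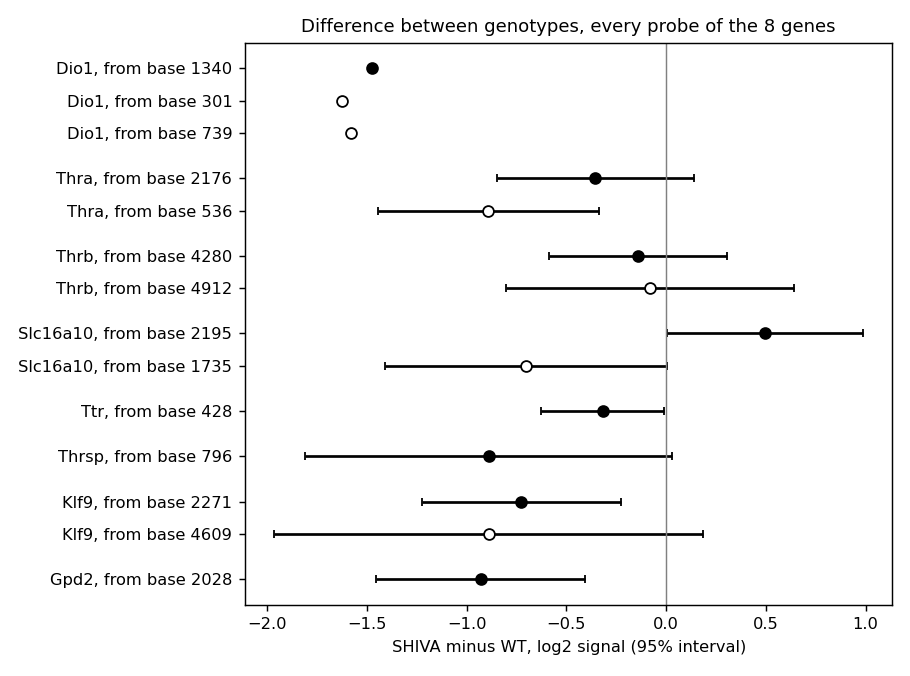
Difference of mean log2 signals, SHIVA minus WT, for all 14 probes of the 8 genes, with 95% intervals from limma. Filled points mark the probe that stands for the gene and open points its other probes. Dio1 is shown without an interval because it was chosen for this difference. The probes of Thra, at -0.36 and -0.89, and of Slc16a10, at 0.50 and -0.70, can be seen to lie apart.

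The promoter windows of Dio1, Klf9 and Gpd2 are given because these genes had lower values in every SHIVA liver than in any WT liver. The same held for Ttr, for which no window was found. RefSeq windows from GRCm38.p6, each with 250 bases before and 50 after a transcription start, were found for 6 of the 8 genes, 8 windows in all. In them AGGTCA, the half-site bound by thyroid and retinoid receptors, and ACAAT, the core motif of Sox factors, were searched on both strands, with overlaps counted. Matches are in capitals.
Dio1, chr4:107307119-107307418, minus strand: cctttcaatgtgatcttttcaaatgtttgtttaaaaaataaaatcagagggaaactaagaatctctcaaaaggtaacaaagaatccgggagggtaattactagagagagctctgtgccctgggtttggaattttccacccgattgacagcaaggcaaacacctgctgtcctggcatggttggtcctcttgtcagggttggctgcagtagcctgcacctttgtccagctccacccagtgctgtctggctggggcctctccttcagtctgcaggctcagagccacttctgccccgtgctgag
Klf9, chr19:23140976-23141275, plus strand: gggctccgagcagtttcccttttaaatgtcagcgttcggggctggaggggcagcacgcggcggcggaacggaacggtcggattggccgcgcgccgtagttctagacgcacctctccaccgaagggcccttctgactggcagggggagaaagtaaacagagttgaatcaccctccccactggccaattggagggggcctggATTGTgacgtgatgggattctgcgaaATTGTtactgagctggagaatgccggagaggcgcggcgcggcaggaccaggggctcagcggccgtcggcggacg
Gpd2, chr2:57237428-57237727, plus strand: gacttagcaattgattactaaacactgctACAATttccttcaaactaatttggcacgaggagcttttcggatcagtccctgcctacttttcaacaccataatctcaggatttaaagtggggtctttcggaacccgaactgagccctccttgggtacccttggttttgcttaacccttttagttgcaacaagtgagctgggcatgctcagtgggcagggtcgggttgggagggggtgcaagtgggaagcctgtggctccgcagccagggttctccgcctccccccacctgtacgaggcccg

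The Dio1 window held neither motif. The Klf9 window held 2 matches to ACAAT, both on the reverse strand as ATTGT, and the upstream Gpd2 window held 1. The downstream Gpd2 window, not printed above, held neither motif. Of all 32851 RefSeq windows, 10192 held ACAAT and 5340, or 16.3%, held AGGTCA. Of the member windows only that of the upstream Thrb start held AGGTCA, and none held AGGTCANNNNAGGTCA, the direct repeat that receptor pairs bind, which was in 5 of all windows. A missing match says only that these letters are not in this window.

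The other genes of thyroid hormone action were taken from 5 lists, which hold 58 tested genes besides the 8 above. Of these, Crebbp was called higher and Me1 lower, beside 0.185% called higher and 0.19% called lower over all genes tested. The groups did not overlap for 4 genes lower and 4 genes higher in SHIVA livers, beside 6.02% lower and 6.14% higher over all genes tested.

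Me1, the cytosolic malic enzyme that supplies NADPH for fatty acid synthesis and a T3 target, was at 11.39, 11.69 and 11.49 in WT livers and at 10.48, 10.14, 10.55 and 10.64 in SHIVA livers. All SHIVA livers were lower on each of its 3 probes. Its log2 fold change was -1.07 ± 0.17 (SE), with an adjusted p of 0.0455 in limma. With 1 mouse left out the log2 fold change stayed between -1.14 and -0.97. The call did not survive the loss of a mouse other than WT replicate 3, with adjusted p between 0.063 and 0.196. Without the filter on dim probes the adjusted p in limma was 0.116.

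The 19 tested T3-raised genes other than Thrsp, Klf9 and Gpd2 did not share a direction. By value 9 were lower and 10 were higher in SHIVA livers, and their median log2 fold change was 0.05 beside -0.01 over all genes. With Thrsp, Klf9 and Gpd2 included, 12 of 22 were lower and 10 higher, beside 51.2% lower over all genes tested. The median was then -0.05. The largest values were negative, for Fgf21, a fasting hormone of liver, and Hr, a corepressor named for the hairless mouse that T3 strongly induces.

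Hr was at 7.25, 7.39 and 5.65 in WT livers and at 4.89, 4.51, 5.03 and 4.84 in SHIVA livers. The groups did not overlap, with WT replicate 3 nearest to the SHIVA livers. The log2 fold change was -1.94 ± 0.39 (SE) with an adjusted p of 0.104 in limma, and -2.50 with an adjusted p of 0.00361 without WT replicate 3. It also passed with array weights, at -2.08 with an adjusted p of 0.0222, while normexp background correction gave -0.97.

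Fgf21 was at 7.30, 7.76 and 4.58 in WT livers and at 4.37, 5.14, 3.77 and 4.48 in SHIVA livers, so WT replicate 3 fell among them. Its log2 fold change was -2.11 ± 0.70 (SE), with an adjusted p of 0.25 in limma. Without that mouse it was -3.09, with an adjusted p of 0.014, and with normexp background correction -1.15. The same WT mouse was not low for Dio1, where it lay between the other WT livers.

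In the same list, 2 genes chosen after their values were seen had higher values in all SHIVA livers. Acly, the ATP citrate lyase of lipid synthesis, had a log2 fold change of 0.90 with an adjusted p of 0.206 in limma. Atp1b1, a subunit of the sodium pump, was at 0.57 with an adjusted p of 0.194.

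**Figure D4:**
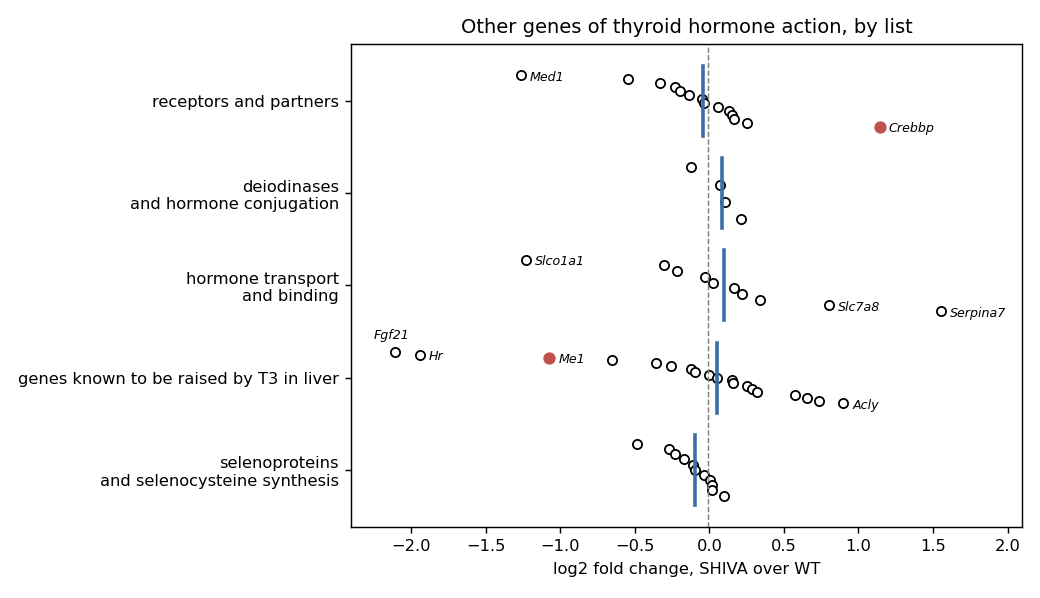
Log2 fold change, SHIVA over WT, of the 58 tested genes in the 5 lists, with the 8 genes of the main set left out. Each point is 1 gene, the blue bar is the list's median and the dashed line the median of all genes tested, -0.01. Red points mark Crebbp at 1.14 and Me1 at -1.07, the genes called at an adjusted p under 0.05, and vertical position within a list has no meaning.

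Of the 14 receptor partners tested, 8 were lower and 6 higher by value, with a median log2 fold change of -0.04. Crebbp, the coactivator CBP that acetylates histones, was at 9.98, 10.37 and 10.38 in WT livers and at 11.36, 11.11, 11.54 and 11.53 in SHIVA livers, all higher. Its log2 fold change was 1.14 ± 0.18 (SE) with an adjusted p of 0.0434 in limma. With 1 mouse left out the log2 fold change stayed between 1.01 and 1.24. Crebbp was no longer called without WT replicate 1 or 2 or SHIVA replicate 1, 3 or 4, with adjusted p between 0.0791 and 0.181. Without the filter on dim probes the adjusted p in limma was 0.117.

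Med1, the Mediator subunit that docks nuclear receptors, had 4 probes that disagreed. On the brightest all SHIVA livers were lower, at a log2 fold change of -1.26 ± 0.28 (SE) and an adjusted p of 0.127 in limma, while the others gave -0.51, -0.00 and 0.15. Hdac3, the deacetylase of the receptor's corepressor complex, was at -0.54 with an adjusted p of 0.368, and at -0.20 with normexp background correction.

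The remaining deiodinases gave little signal. Dio2, which makes T3 in other tissues, was not well above background on any array. Dio3, which inactivates the hormone, was so on 1 WT and 1 SHIVA array, and neither was tested. The 4 tested genes of hormone sulfation and glucuronidation had log2 fold changes between -0.12 and 0.21. Among them Sult1a1 was at 0.21, Sult1b1 at 0.10 and Sult1d1 at -0.12, each with overlap and adjusted p of 0.587, 0.875 and 0.908.

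Of the 10 tested transport and binding genes besides Slc16a10 and Ttr, none was called, with 10 adjusted p between 0.287 and 0.959 in limma, and 2 had an unadjusted p under 0.05, beside 13.3% of all genes tested. Serpina7, the thyroxine-binding globulin, was at 5.81, 4.75 and 5.95 in WT livers and at 7.95, 7.21, 7.60 and 5.47 in SHIVA livers. SHIVA replicate 4 lay within the WT values and the others above them, with a log2 fold change of 1.55 ± 0.57 (SE) and an adjusted p of 0.287. Slco1a1 and Slc7a8, which carry thyroid hormones among other substrates, were at -1.23 and 0.80, both with overlap. Slco1a1 was at -0.75 without SHIVA replicate 2. With normexp background correction Serpina7 was at 0.89, Slco1a1 at -0.49 and Slc7a8 at 0.46.

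Type 1 deiodinase is a selenoprotein, and the 11 genes of other selenoproteins and of selenocysteine synthesis did not share its difference in these values. Their log2 fold changes ran from -0.48 to 0.10. None of the genes was free of overlap between the groups, beside 12.2% of all genes tested. None was called, beside 0.375%, and the smallest adjusted p was 0.529 in limma. At an unadjusted p under 0.05 there were 0, beside 13.3%. Among 11 genes, counts of 0 lie near these shares. Secisbp2, which binds the selenocysteine insertion element, was at -0.48, with 1 low value of 6.98 in SHIVA replicate 2 against 8.60 to 8.78 in the other SHIVA livers. Without that liver it was -0.05. Gpx4 and Gpx1, glutathione peroxidases, were at -0.27 and -0.23, and at -0.13 and -0.09 without WT replicate 1.

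The genes most like Dio1 over the 7 mice were found by the root mean square distance between log2 profiles set to their own means. They were Ybx2 at 0.13, Slc26a10 at 0.19, St3gal6 at 0.19, Mup2 at 0.21 and Nr1d1 at 0.23. All 5 separated the genotypes as Dio1 did, which the way of choosing them fixes, so no test is given. Ybx2 encodes a Y-box nucleic acid binding protein, and its values were 7.183, 6.920 and 7.003 in WT livers and 5.279, 5.209, 5.536 and 5.752 in SHIVA livers. Mup2 belongs to the major urinary proteins, whose near-identical copies 1 probe may not tell apart.

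Nr1d1 was at 10.65, 10.24 and 10.57 in WT livers and at 9.58, 8.98, 9.11 and 9.25 in SHIVA livers. St3gal6, a sialyltransferase, was at 6.95, 7.11 and 6.88 against 5.58, 5.76, 5.56 and 5.74. Among the other thyroid hormone genes, Gpd2 and Klf9 came nearest to Dio1, at distances of 0.46 each and ranks 267 and 286 of 19960, and Slc16a10 was farthest, at 1.03.

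**Figure D5:**
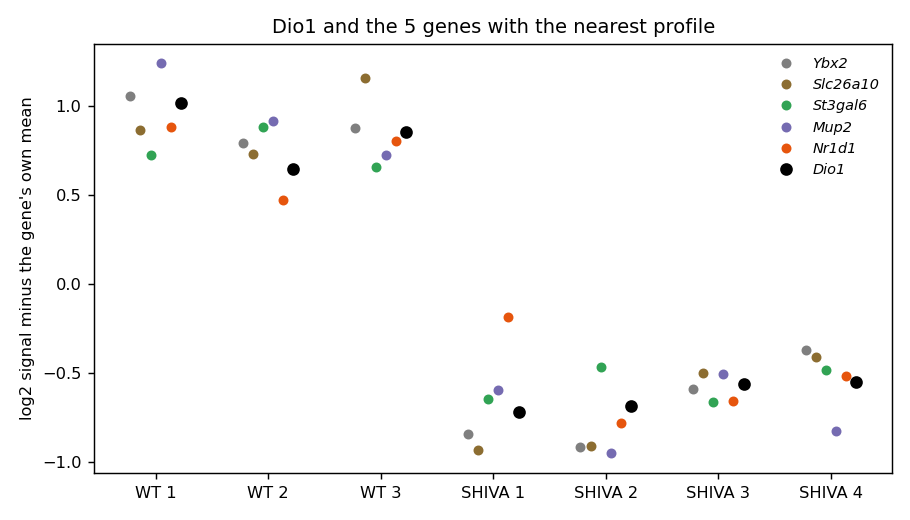
Log2 signal of Dio1, in black, and of its 5 nearest genes in each of the 7 mice, after subtracting each gene's own mean over the mice. All 6 genes lie above 0 in the WT livers and below 0 in the SHIVA livers, as follows from choosing them by nearness to Dio1, and points are shifted sideways for legibility only.

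The arrays lay on 1 slide, with WT arrays in row 1 and SHIVA arrays in row 2, so that place on the slide and genotype cannot be told apart. Per array, 44.5% to 48.7% of probes exceeded background clearly. SHIVA replicate 2, low for Thra and high for Thrsp, correlated with the other arrays at r of 0.972 to 0.985 over log2 values. The other pairs had 0.976 to 0.993. The array weight was largest for SHIVA replicate 1, 4.11. It was smallest for SHIVA replicate 2, 0.46, followed by 0.547 for WT replicate 1 and 0.553 for WT replicate 3. WT replicate 3 correlated at 0.982 and 0.984 with WT replicates 1 and 2. With SHIVA replicates 1, 3 and 4 it correlated more highly, at 0.988 to 0.989, and with SHIVA replicate 2 at 0.977. Sox17 itself, a point mutant whose level does not check the labels, had a log2 fold change of 0.69 with an adjusted p of 0.28 in limma. Its probe was dim, with mean log2 signals of 3.96 in WT and 4.64 in SHIVA livers. It was well above background on 2 WT and 4 SHIVA arrays.

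All 6 hepatocyte markers were measured, with log2 fold changes between -0.17 and 0.55. The neutrophil markers S100a8, S100a9, Ngp, Camp and Mpo, 5 of 5, were higher by mean in SHIVA livers, and their mean log2 level ran from 4.58 to 5.82 in WT livers and from 4.42 to 8.12 in SHIVA livers, with overlap. Mpo and Ngp were well above background on 3 SHIVA arrays and on 0 WT arrays. They were thus tested only through the group where they are high, which fixes their direction. Their dim values also enter these mean levels. S100a8, S100a9 and Camp were well above background on all arrays. SHIVA replicate 4 had the lowest neutrophil level, 4.42. Its Dio1 signal on the brightest probe, 10.90, was close to the 10.89 of SHIVA replicate 3. From base 739 it was level with SHIVA replicate 3, at 9.70 each. From base 301 it was 8.05, between the other SHIVA livers. The part of neutrophil RNA in the results was not tested, and whole livers do not tell fewer cells of a type from less RNA per cell. All 5 Kupffer cell markers and both tested red cell markers also had higher means, while none of the 4 adipocyte markers reached the level to be tested.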

How the data were processed

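Livers of 3 WT and 4 SHIVA mice were measured on 1 array each. The authors deposited the scanner output, with spot intensity values from Agilent Feature Extraction 10.5.1.1, not normalized between arrays, and a table of log2 values that the authors quantile normalized in R. Here 120 to 163 uneven or deviant spots per array were dropped, and the rest were brought to a common distribution by quantile normalization and logged to base 2. Spots of a probe were averaged, and each gene took its brightest probe. Genes well above background on at least 3 arrays were tested with lmFit and eBayes of limma 3.58.1 in R 4.3.3, with Benjamini-Hochberg adjustment over 20002 genes. Gene names were updated from RefSeq for GRCm38.p6, and probe positions are those of mm9 in the files. No position was converted. The number of arrays limits the precision. Where the labels do not name litters or days, p-values measure only the spread between these mice.

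The members and gene lists were chosen with earlier results of these data known. Named were all 8 genes with every probe, from each list the called genes and up to 3 with the largest log2 fold change, the 5 genes nearest to Dio1, and Sox17. Acly and Atp1b1 were added after their values were seen. Markers of 9 cell types were also fixed. Biliary, sinusoidal endothelial, stellate and pancreas markers had median log2 fold changes of -0.64, -0.05, -0.01 and 0.14, with 0 called. Intervals use limma's moderated degrees of freedom. The steps were tested on simulated data. The alternatives were other scalings and background corrections, the authors' table, other filters, all probes, array weights, a block for the replicate number, the omission of 1 mouse at a time, and the methods' t-test.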

Additional observations from a re-analysis of the deposited data

Results flagged for a closer look

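Among 35 sets of 4 SHIVA values, those of the members' probes and of the other genes chosen by rule, 3 had a liver far from the others by Dixon's test for a single deviating value. Chance gives about 1 in 20 such sets. The second Klf9 probe read 2.17 in SHIVA replicate 3 and 3.63 to 3.92 in the other SHIVA livers. Secisbp2 read 6.98 in SHIVA replicate 2 and 8.60 to 8.78 in the others. Gpx1 read 17.48 in SHIVA replicate 1 and 17.32 to 17.34 in the others.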

How the results depend on the processing

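The Dio1 difference was between -1.63 and -1.38 under every alternative run, other probes and each mouse left out included. The count of 75 called genes was 141 with the mean signal or with the authors' table, 13 with no filter, 393 with array weights and 0 with the methods' t-test (2301 at an unadjusted p under 0.05). It was 3 without WT replicate 1, 8 without WT replicate 2, 416 without WT replicate 3, 7 without SHIVA replicate 1 and 13 without SHIVA replicate 3. Of the 7 genes other than Dio1, 1 was called with array weights, Gpd2, and 0 otherwise. The 2 called list genes became 0 with no filter, with the t-test and with single probes, and between 0 and 6 without 1 mouse, with 6 without WT replicate 3, 1 without SHIVA replicate 2 and 0 without any other. Values turned sign for Slc16a10 (-0.10 with the mean of its probes, -0.70 with the other probe), Med1 (0.15 with 1 of its other probes), Sult1d1 (0.026 with the mean of its probes, -0.33 to 0.23 without 1 mouse) and Sult1b1 (-0.052 to 0.351 without 1 mouse). The cause was not tested.

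Between same-numbered mice, deviations from the group means correlated at -0.05, 0.01 and 0.24. The last was the highest among all pairs of a WT and a SHIVA mouse. Such deviations cancel out within each small group, so these values cannot decide whether the replicate numbers pair the mice. With the replicate block, to which SHIVA replicate 4 adds nothing, 32 genes and 1 list gene, Serpina7, were called, while Crebbp and Me1 were not. Signals near background left Dio2 and Dio3 without a test.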
